A study of Drosophila melanogaster with 5 samples.

Results

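Translation factors are the soluble proteins that load ribosomes onto mRNA, move them along it and release the finished protein. The 53 Drosophila melanogaster genes described here were all protein-coding genes of the 29 °C count table whose symbols begin with eIF (initiation), eEF (elongation) or eRF (release), out of 24034 features of which 13968 were protein-coding. All 53 were found by identifier in the 25 °C table of 23882 features. By known role, 9 belong to eIF2, its exchange factor eIF2B and eIF2D, 5 act in scanning and subunit joining, 16 carry eIF3 names, 13 bind the cap or unwind and bridge the mRNA, 8 act in elongation and 2 in release.

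Initiation begins when eIF2, a GTP-binding protein, carries the initiator tRNA to the small ribosomal subunit, and eIF2B reloads eIF2 with GTP. The large eIF3 complex and the cap-binding complex of eIF4E, eIF4G and the helicase eIF4A bring that subunit to the mRNA, which it scans for a start codon. During elongation eEF1alpha delivers tRNAs, its partners eEF1beta, eEF1delta and eEF1gamma recharge it, and eEF2 moves the ribosome on, until eRF1 and eRF3 act at the stop codon. Neurons also regulate these steps near synapses, among other routes through phosphorylation of eIF2alpha and proteins that bind eIF4E.

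PolyA RNA was sequenced from 5 labelled samples, 1 per group, and the labels name the tissue both as heads and as brain. The groups were Levodopa at 25 °C and untreated control at 25 °C, then histone H1 overexpression (H1OE) at 29 °C, Levodopa at 29 °C and control at 29 °C, and all but H1OE are labelled wild type. Levodopa, the precursor of dopamine, was given at 4 g/L in the food for 7 days, and H1OE flies carried a temperature-sensitive Elav driver, active in neurons, together with an H1 overexpression construct, from crosses kept at 18 °C and then 7 days at 29 °C. Neither driver, background, cross temperature nor time at 29 °C was matched by label in the 29 °C control. Sex, age and the number of flies per sample are not given in the labels used here. Each 25 °C sample had 2 columns of counts (called libraries here) and each 29 °C sample had 1.

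Library totals lay between 24770629 and 30334054 counts. The 23 annotated His1 genes summed to 0 counts in the H1OE, Levodopa and control libraries at 29 °C, so polyA counts did not check the overexpression label. Of the marker lists used to check the tissue, 6 neuronal and 7 photoreceptor genes had reads in every library, and the 5 ovary and 7 testis markers summed to at most 1.91 FPKM (fragments per kilobase of exon, scaled to library size; a deposited unit). In heads sequenced in bulk, fewer cells of a type and less RNA per cell cannot be told apart. The labels do not say whether the 2 columns of a 25 °C sample came from separate flies, so the p-values below reflect the scatter of columns alone, and that scatter may be technical.

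Transcripts of the elongation factors were the most abundant of the 53 when levels were compared per length. In FPKM, 16 of 53 genes were at 100 or more in every library and 7 were below 1 in every library. The delivery factor eEF1alpha1 was the highest, with 2299 and 2279 FPKM in Levodopa at 25 °C, 2914 and 2896 FPKM in control at 25 °C, 4039 FPKM in H1OE, 3968 FPKM in Levodopa at 29 °C and 3832 FPKM in control at 29 °C. The translocation factor eEF2 followed, between 1346 and 2215 FPKM. The 8 elongation genes together held 65.8 to 69.8% of the summed FPKM of all 53.

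Among initiation genes the helicase eIF4A had the highest level, with 526 and 515 FPKM in Levodopa at 25 °C, 565 and 569 FPKM in control at 25 °C, 990 FPKM in H1OE, 889 FPKM in Levodopa at 29 °C and 826 FPKM in control at 29 °C. Its partners in the cap complex were far lower: the cap-binding protein gene eIF4E1 lay between 89.2 and 99.2 FPKM and the scaffold gene eIF4G1 between 25.2 and 50.2 FPKM. The 13 eIF3 subunit genes without a number 2 in their symbol lay between 51.7 and 306 FPKM. Of these, eIF3f1 had the highest mean, at 166 and 170 FPKM in Levodopa at 25 °C, 270 and 281 FPKM in control at 25 °C, 256 FPKM in H1OE, 225 FPKM in Levodopa at 29 °C and 237 FPKM in control at 29 °C. The second copies eIF3d2, eIF3f2 and eIF3g2 were at 0.45 FPKM or less in every library.

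The genes for eIF2 and eIF2B were moderate in level. The eIF2 subunit gene eIF2beta had 82.7 and 81.0 FPKM in Levodopa at 25 °C, 90.7 and 94.3 FPKM in control at 25 °C, 71.5 FPKM in H1OE, 82.9 FPKM in Levodopa at 29 °C and 82.9 FPKM in control at 29 °C. The 5 eIF2B subunit genes lay between 9.57 and 44.6 FPKM, below all 3 eIF2 subunit genes in the same library apart from eIF2Bbeta, which in the 25 °C controls was above eIF2gamma. The start codon selection gene eIF1 had 164 and 171 FPKM in Levodopa at 25 °C, 202 and 207 FPKM in control at 25 °C, 143 FPKM in H1OE, 134 FPKM in Levodopa at 29 °C and 146 FPKM in control at 29 °C. For termination, the stop codon reader eRF1 had 47.8 and 48.6 FPKM in Levodopa at 25 °C, 35.8 and 34.8 FPKM in control at 25 °C, 71.2 FPKM in H1OE, 65.8 FPKM in Levodopa at 29 °C and 61.4 FPKM in control at 29 °C, and its GTPase partner eRF3 was lower throughout, at 15.4 to 33.0 FPKM.

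Cap-binding paralogs other than eIF4E1 and the repressor eIF4EHP were rare in these heads. The paralog eIF4E6 was at 1.47 to 3.03 FPKM, eIF4E3 at 0.93 to 1.36 FPKM at 29 °C and at most 0.1 FPKM at 25 °C, and eIF4E4, eIF4E5 and eIF4E7 at most 0.19 FPKM. The gene eIF4H2 had 0 counts in every library. The gene eIF5, whose product makes eIF2 hydrolyse its GTP, had 9.76 and 8.24 FPKM in Levodopa at 25 °C and 7.17 and 8.01 FPKM in control at 25 °C, but 0.49 FPKM in H1OE, 0.68 FPKM in Levodopa at 29 °C and 0.54 FPKM in control at 29 °C. The 2 tables were made from different feature sets, so levels across them were set side by side without a test. In both tables the gene CG46312, whose span overlaps that of eIF5 on the same strand, had 0 counts in every library.

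**Figure D1:**
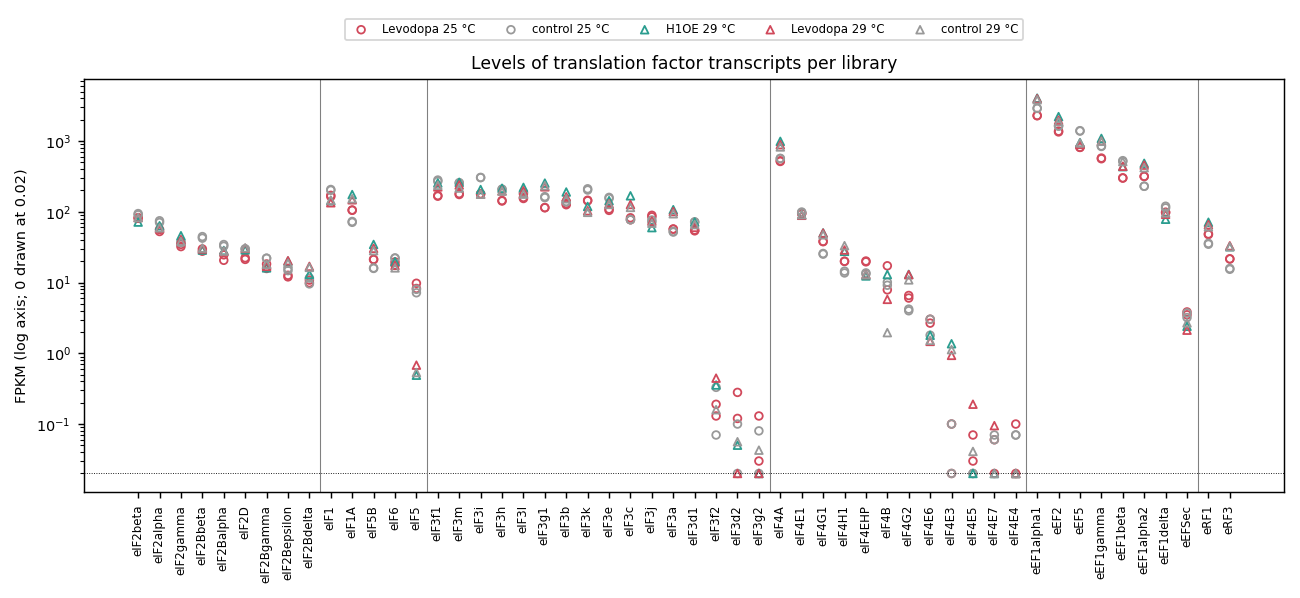
Deposited FPKM (log axis) of the 52 translation factor genes with a read in some library, in order of role and then of mean level. Each point is 1 library, circles are 25 °C and triangles 29 °C, and a value of 0 is drawn at 0.02. eEF1alpha1 is highest, the 3 second eIF3 copies and the rarest eIF4E paralogs sit below 1, and eIF5 differs between the tables.

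Levodopa at 25 °C was compared with control at 25 °C to ask which translation factor transcripts changed with feeding. Of the 53 genes 46 were tested, the other 7 having fewer than 10 counts in every 25 °C column. Of the 46, 0 rose and 0 fell at least 2-fold with an adjusted p under 0.05 (edgeR quasi-likelihood test, Benjamini-Hochberg over 11799 genes), where 2.02% of all genes rose and 3.14% fell. At a 1.5-fold minimum 13 of the 46 fell and 0 rose, where 13.9% of all genes fell and 7.29% rose. The fallen genes were 7 eIF3 subunits, 3 elongation factors and 3 genes of the ternary complex group. For each of the 13 the columns of the groups did not overlap. The same held for 40 of the 46 and for 76.8% of all genes tested, so it does not set the 13 apart. The median log2 fold change was -0.35 over the 46 and -0.00 over all genes tested. With library totals in place of TMM, which moved the median of all genes to 0.13, 5 members fell and 1 rose, and the split of all genes changed to 1672 higher and 1055 lower, against 860 higher and 1643 lower with TMM; with deposited FPKM and limma 4 members fell. Without a fold minimum 29 were lower and 11 higher with an adjusted p under 0.05, where 58.5% of all genes passed that rule in either direction. The 11 include eIF4B, whose columns overlapped between the groups.

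In the eIF3 group 7 of 14 tested genes fell and the median log2 fold change was -0.59. The subunit gene eIF3i had 200 and 202 CPM (counts scaled to a common library size by TMM) in Levodopa, against 374 and 379 CPM in control, a log2 fold change of -0.91 (SE 0.03, adjusted p = 1.92e-244, edgeR). eIF3f1 averaged 208 ± 4.28 CPM in Levodopa and 376 ± 12.1 CPM in control (SD, n = 2 columns each), a log2 fold change of -0.85. Both Levodopa columns of each gene lay below both control columns, with columns of a group close to each other. The MPN-domain subunit gene eIF3h had 202 and 207 CPM in Levodopa and 328 and 325 CPM in control, a log2 fold change of -0.68. eIF3e had 158 and 153 CPM in Levodopa and 246 and 255 CPM in control (-0.69), and eIF3m had 273 and 267 CPM in Levodopa and 422 and 432 CPM in control (-0.66). eIF3k (-0.66) and eIF3g1 (-0.63) completed the 7.

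The remaining measured eIF3 subunit genes were closer to their controls. eIF3d1, which can bind the cap in human cells, had a log2 fold change of -0.54 (SE 0.04) and eIF3l one of -0.38 (SE 0.03), both below the 1.5-fold minimum. Of the long core subunit genes, eIF3b was at -0.25, eIF3c at -0.10 and eIF3a at -0.01, the last 2 turning to 0.042 and 0.12 with library totals. The loosely attached eIF3j was at 0.09. After removal of the length trend described below, eIF3a was at -0.21, eIF3b at -0.26, eIF3c at -0.22, eIF3l at -0.22 and eIF3j at 0.33. The rare eIF3d2 had 8 and 19 counts in Levodopa and 6 and 1 in control, and its log2 fold change of 1.62 (SE 0.92) did not pass (edgeR adjusted p = 0.118).

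Of the 8 elongation factor genes 3 fell, and their median was -0.44 on the log2 scale. The exchange subunit gene eEF1beta had 273 and 277 CPM in Levodopa, against 517 and 533 CPM in control, the lowest log2 fold change of the 46 at -0.93 (SE 0.02). eEF5, the fly counterpart of eIF5A, a hypusine-bearing protein that helps ribosomes past stalling sequences, had 624 and 629 CPM in Levodopa and 1169 and 1190 CPM in control (-0.91). The other subunit of the exchange complex to fall was eEF1gamma, with 924 and 913 CPM in Levodopa and 1489 and 1518 CPM in control (-0.71). In all 3 genes the columns of a group lay within a few percent of each other and the groups were apart. eEF1delta (-0.39), eEF2 (-0.40) and eEFSec, the selenocysteine factor (-0.05, but 0.084 with library totals), did not reach 1.5-fold.

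The gene pair that encodes eEF1alpha moved in opposite directions without either member passing the 1.5-fold rule. eEF1alpha1 averaged 5377 ± 0.33 CPM in Levodopa and 7511 ± 8.08 CPM in control (SD, n = 2 columns each), a log2 fold change of -0.48 (SE 0.01). eEF1alpha2 averaged 801 ± 5.81 CPM in Levodopa and 640 ± 0.30 CPM in control, a log2 fold change of 0.32 (SE 0.02). In FPKM, which corrects for their lengths of 2464 and 2656 bases, eEF1alpha2 made up 12.1 and 12.2% of the pair in Levodopa, against 7.32 and 7.33% in control. At 29 °C its share was 10.7% in H1OE, 10.3% in Levodopa and 9.88% in control. The 2 coding sequences are close paralogs, so reads shared between them could have been counted to either gene or dropped, and the share depends on the authors' handling of such reads. This share was computed after the values had been seen.

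All 9 genes of the ternary complex group were below control in Levodopa, their median at -0.51 on the log2 scale, and 3 of them fell by the 1.5-fold rule. Of 11799 genes tested 5924 were below control, and 13.9% fell by that rule. After removal of the length trend described below, all 9 stayed below control, 0 fell and their median was -0.34. For eIF2Bdelta (-0.17) the columns of the groups overlapped. The eIF2B regulatory subunit gene eIF2Bbeta had 35.7 and 38.8 CPM in Levodopa and 60.2 and 63.7 CPM in control (-0.74, SE 0.06). eIF2Balpha had 23.5 and 19.9 CPM in Levodopa and 36.2 and 34.5 CPM in control (-0.71, SE 0.08). The fall of these exchange factor genes was larger than the gap between columns of a group, although, among the 43 members with at least 200 counts in both Levodopa columns, eIF2Balpha had the second widest gap between them, 1.18-fold. eIF2D, which can deliver tRNA without GTP, was at -0.59. The subunit gene eIF2alpha, whose product is the substrate of the stress kinases, had 81.1 and 76.6 CPM in Levodopa and 112 and 119 CPM in control, a log2 fold change of -0.56 that lay just under the 1.5-fold minimum.

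Cap complex and release genes lay mostly above control without passing the 1.5-fold rule. Of 8 cap-group genes tested, 0 fell or rose by the 1.5-fold rule, and their median log2 fold change was 0.30. The scaffold gene eIF4G1 had 238 and 238 CPM in Levodopa and 177 and 174 CPM in control, a log2 fold change of 0.44 (SE 0.03). Its paralog eIF4G2 was at 0.48 (SE 0.06), the repressor gene eIF4EHP at 0.42 (SE 0.04) and the helicase cofactor gene eIF4H1 at 0.37 (SE 0.05). The core partners went the other way, with eIF4A at -0.26 (SE 0.02) and eIF4E1 at -0.19 (SE 0.03). All 6 of these genes had an adjusted p under 0.05 (edgeR) while staying below 1.5-fold. For each of the 6 the columns of the groups did not overlap, as for 76.8% of all genes tested. On the same strand, the span of eIF4EHP shares 4164 bases with Syx1A and that of eIF4G2 10953 bases with CG33111, so reads may be shared. Syx1A had 2201 and 1869 counts in Levodopa and 1135 and 1283 in control. CG33111 had 567 and 543 counts in Levodopa and 316 and 361 in control.

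Of the 5 scanning and joining genes 0 passed the 1.5-fold rule. eIF1A, which holds the small subunit open for scanning, had 171 and 175 CPM in Levodopa and 131 and 128 CPM in control (0.41, SE 0.04), whereas eIF1 had 106 and 111 CPM in Levodopa and 144 and 148 CPM in control (-0.42, SE 0.04). The joining factor eIF5B was at 0.27, eIF5 at 0.11 and the anti-association factor eIF6 at -0.39; eIF6 lies wholly within the gene ytr on the same strand, so its reads may be shared. Both release factor genes were higher without passing the rule, eRF1 with 141 and 145 CPM in Levodopa and 117 and 114 CPM in control (0.31) and eRF3 with 90.2 and 91.2 CPM in Levodopa and 71.1 and 73.3 CPM in control (0.33).

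**Figure D2:**
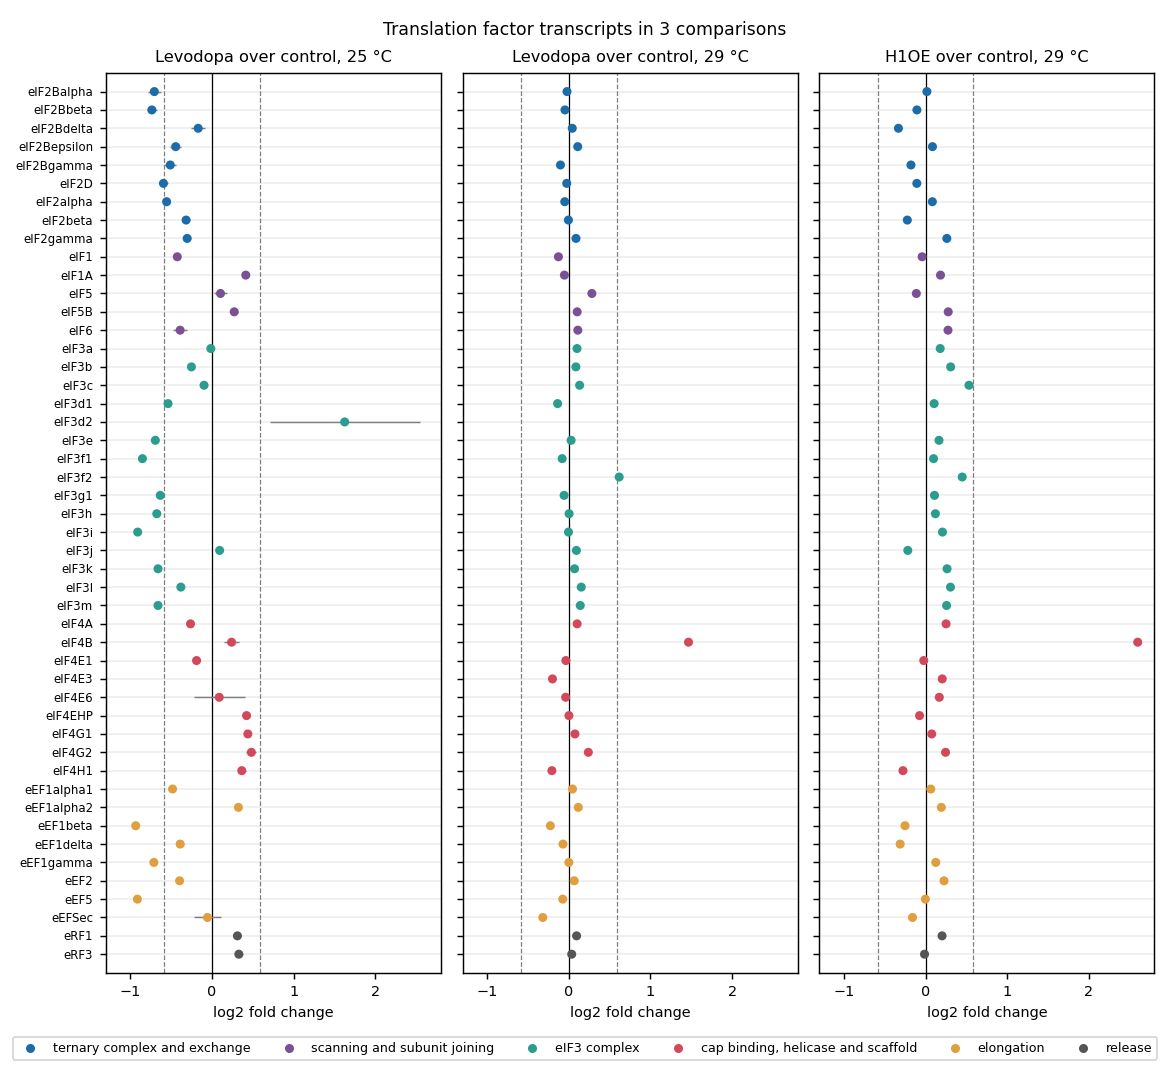
Log2 fold change of each measured translation factor gene. Panels show Levodopa over control at 25 °C, Levodopa over control at 29 °C and H1OE over control at 29 °C. Error bars at 25 °C are the SE derived from the edgeR F statistic. The 29 °C values have no replicates and no error bars. Dashed lines mark 1.5-fold. At 25 °C eIF3, elongation and ternary complex genes lie mostly left of 0 and cap complex and release genes mostly right, whereas at 29 °C almost all lie near 0 and eIF4B stands out.

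Gene length moved with these differences. The 13 fallen genes had exonic lengths of 807 to 1841 bases, and 13 of the 25 tested members shorter than 2000 bases fell, against 0 of the 21 longer ones. Among all genes tested, 23.4% of those shorter than 2000 bases and 3.85% of the longer ones fell by the same rule. Spearman's rho between length and log2 fold change was 0.68 over the 46 members and 0.35 over all genes, which share the same libraries. After a smooth length trend over all genes was removed, 4 members still fell (eEF1beta, eEF5, eIF3i and eIF3f1), eIF1A rose, and the median of the members was -0.22. That count of 4 among 46 stands beside 8.14% of all genes lower and 5.44% higher after the same removal, so it is near the share of all genes. The eIF4G1, eIF4G2 and eIF4EHP values then stood at 0.07, 0.02 and 0.06, and eEF1alpha2 at 0.32 was almost where it had been.

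Other measured features of these libraries also moved with Levodopa at 25 °C. The mitochondrial genome took 19.2 and 19.98% of counts in Levodopa and 13.0 and 13.2% in control, and the 53 genes took 1.86 and 1.83% of counts in Levodopa and 2.24 and 2.25% in control. The 6 neuronal markers summed to 401 and 397 FPKM in Levodopa and 245 and 240 FPKM in control, with none at 0 and 3 of 6 higher by the 1.5-fold rule (0 of 6 after the length trend was removed). The 7 photoreceptor markers summed to 32852 and 32493 FPKM in Levodopa and 41334 and 41001 FPKM in control, with none at 0 and 4 of 7 lower (2 of 7 after that removal). The 5 muscle markers summed to 294 and 288 FPKM in Levodopa and 211 and 217 FPKM in control, with none at 0. Of these 5, 1 was higher by the 1.5-fold rule (2 after that removal). Their signs were mixed, with 3 above 0 and 2 below (2 above and 3 below after that removal). Single markers of other tissues moved further, without the rest of their lists. The gland gene LysP had 5 and 5 counts in Levodopa and 579 and 627 in control. The other gland markers Amy-p and Amy-d had log2 fold changes of -0.12 and -0.09. The fat body gene Lsp2 had a log2 fold change of 3.10. Of the 6 fat body markers measured, 1 was higher and 1 lower by the 1.5-fold rule, with a median of -0.20. The part of length, of these markers and of the mitochondrial share in the translation factor result was not tested.

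**Figure D3:**
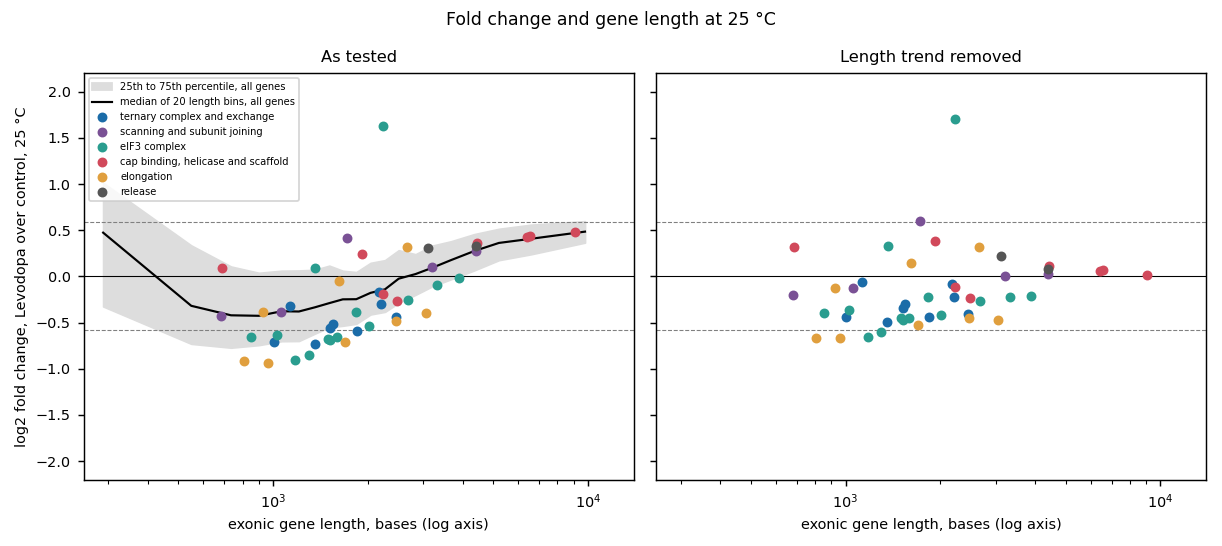
Log2 fold change of each tested translation factor gene in Levodopa over control at 25 °C against exonic length (log axis), as tested and after removal of the length trend; dashed lines mark 1.5-fold. The black line and grey band give the median and the 25th to 75th percentile of all genes in 20 bins of length. The 13 fallen genes are all shorter than 2000 bases. The 1.5-fold rule that picked them also places them below the median of every length bin.

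Levodopa at 29 °C gave the same treatment at another temperature, with 1 library per group and therefore no replicate check. Of 47 genes compared, 1 was at least 2-fold higher and 0 at least 2-fold lower, on TMM-scaled counts with 10 counts added to each library, where 1.17% of all genes were higher and 1.53% lower by that much. By the 1.5-fold rule 2 were higher, eIF4B and the rare eIF3f2 with 12 counts in Levodopa and 4 in control, and 0 were lower, where 4.36% of all genes were higher and 5.57% lower. The median log2 fold change was 0.03 over the 47 and -0.00 over all genes. The 13 genes that fell at 25 °C lay between -0.23 and 0.14 at 29 °C. eEF1beta was lowest among these, with 416 CPM in Levodopa and 487 CPM in control (fold 0.86, 95% exact counting interval 0.83 to 0.88), and eEF5 had 715 CPM in Levodopa and 752 CPM in control. Whether the Levodopa difference itself differed between the temperatures was not tested, since the 29 °C groups have 1 library each.

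H1OE at 29 °C was set against the same control, to which the Levodopa values above also refer. Of 47 genes compared, 1 was higher and 0 lower by the 2-fold rule, where 3.38% of all genes were higher and 3.76% lower. By the 1.5-fold rule the same counts of 1 higher and 0 lower held, where 8.59% of all genes were higher and 9.66% lower. The gene was eIF4B. The median log2 fold change was 0.11 over the 47 and 0.00 over all genes. Counting intervals given for single genes cover counting error only, not differences between fly samples.

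Within H1OE the eIF3 genes were slightly above control, with a median log2 fold change of 0.19. Of 14 measured, 13 had a positive value, where 50.3% of all genes had one. The 13 include the rare eIF3f2, with 10 counts in H1OE and 4 in control. The scaffold subunit gene eIF3c had 14959 counts (547 CPM) in H1OE, 10841 (415 CPM) in Levodopa and 9164 (379 CPM) in control, a fold over control of 1.44 (95% exact counting interval 1.41 to 1.48), below the 1.5-fold rule. eIF3b and eIF3l were at 0.31 and 0.30, and eIF3j was the exception at -0.22. The ternary complex genes had a median of -0.11, with eIF2Bdelta lowest at -0.33 and eIF2gamma highest at 0.26. Elongation genes lay between -0.31 for eEF1delta and 0.22 for eEF2. Release factors were at 0.20 (eRF1) and -0.01 (eRF3). As a share of all counts the 53 genes took 2.98% in H1OE, 2.76% in Levodopa and 2.60% in control.

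H1OE over Levodopa at 29 °C gave 1 gene higher and 0 lower among 47 by both rules, again eIF4B. Of all genes, 3.15% were higher and 3.04% lower by the 2-fold rule, and 9.0% higher and 8.32% lower by the 1.5-fold rule. The median log2 fold change was 0.11 over the 47. eIF3c was at 0.40, eIF1A at 0.24 and eIF3d1 at 0.24, while eIF5 at -0.40 rested on 42 counts in H1OE and 56 in Levodopa. The 3 comparisons at 29 °C share libraries and are not independent of each other. The 9 fat body markers summed to 464 FPKM in H1OE, 2016 FPKM in Levodopa and 3319 FPKM in control, with none at 0, and the part of this difference in the translation factor values was not tested.

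eIF4B, an RNA-binding protein that in mammals stimulates the helicase eIF4A, had the largest difference between groups at 29 °C among the 47 members compared there. The gene lies at chr3L:27842669-27858271 on the minus strand (dm6), and its whole span is shared by the same-strand noncoding gene lncRNA:CR46482, which had at most 15 counts in any library. It had 668 counts in H1OE, 286 in Levodopa and 90 in control at 29 °C. Relative to the 29 °C control, with 24.4 CPM in H1OE, 10.95 CPM in Levodopa and 3.72 CPM in control, the H1OE fold was 6.57 (95% exact counting interval 5.26 to 8.28) and the log2 fold changes with 10 counts added were 2.60 in H1OE and 1.47 in Levodopa. The same 3 libraries differed by far less in its partner eIF4A, at 0.25 in H1OE and 0.10 in Levodopa.

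At 25 °C the 2 columns of 1 sample differed for eIF4B. It had 997 and 460 counts in Levodopa (31.5 and 14.5 CPM) and 457 and 561 counts in control (18.4 and 20.4 CPM). The first Levodopa column lay above both control columns and the second below both, and the log2 fold change of 0.24 (SE 0.09) did not pass 1.5-fold. Its adjusted p was 0.013 (edgeR), so eIF4B is among the 11 members counted as higher without a fold minimum. Neither the SE nor that p, which draw on scatter shared between genes, describes the gap between these 2 Levodopa columns. Without the first Levodopa column the log2 fold change was -0.42, and without the second it was 0.69. Among the 7650 genes with at least 200 counts in both Levodopa columns, eIF4B was the only one whose scaled counts differed at least 2-fold (2.17-fold; the next gene, tj, 1.45-fold; median 1.04-fold). In control its 2 columns differed 1.11-fold, rank 1283 of 7491 genes. So the 29 °C contrasts of eIF4B, each on 1 library, are of a gene whose columns within 1 labelled sample also differed by 2.17-fold.

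**Figure D4:**
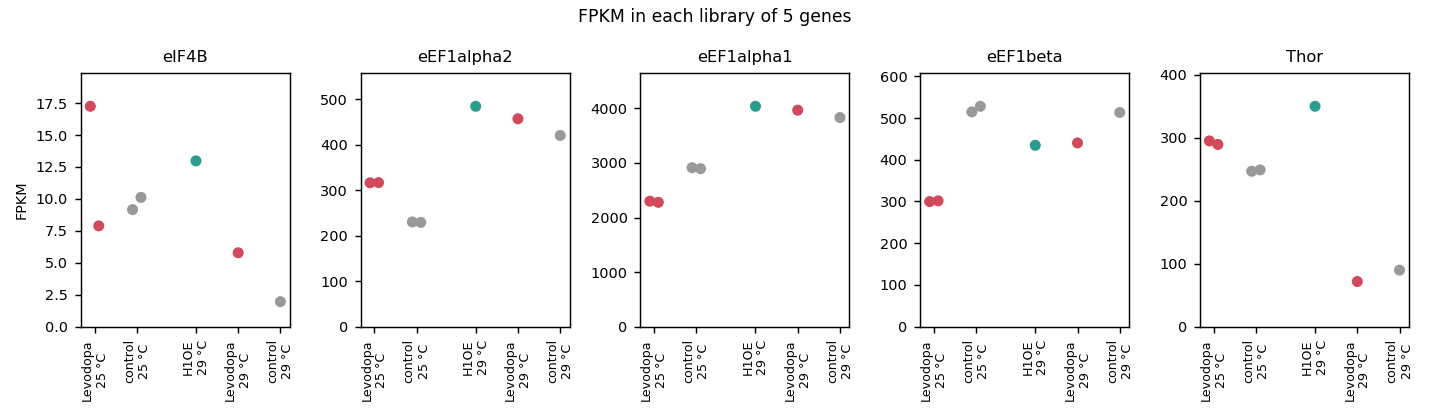
Deposited FPKM in each library for eIF4B, eEF1alpha2, eEF1alpha1, eEF1beta and the eIF4E inhibitor Thor; each point is 1 library and each axis starts at 0. The 2 Levodopa libraries at 25 °C are apart for eIF4B and close together for the other 4 genes.

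The genes that regulate these factors were followed as a list of 20, of which 19 were measured in each comparison. In Levodopa at 25 °C 2 of 19 rose and 2 fell by the 1.5-fold rule, where 7.29% of all genes rose and 13.9% fell. The median log2 fold change of the 19 was 0.26. Paip2, an inhibitor of the poly(A)-binding protein, had 1376 and 1368 counts in Levodopa and 574 and 658 in control (0.88, SE 0.07), and the eIF4E-binding repressor gene 4E-T was at 0.59. Dph5, an enzyme that builds the diphthamide residue of eEF2, had 625 and 571 counts in Levodopa and 823 and 926 in control (-0.83, SE 0.08). The hydroxylase gene nero, whose product completes hypusine on eEF5, fell likewise (-0.73, SE 0.09), as the gene of its substrate did. After removal of the length trend 1 of the 19 rose and 0 fell, where 5.44% of all genes rose and 8.14% fell.

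In H1OE 4 of the 19 regulators were higher than control by the 1.5-fold rule and 0 lower, where 8.59% of all genes were higher and 9.66% lower. In Levodopa at 29 °C 0 passed in either direction, where 4.36% of all genes were higher and 5.57% lower. Thor, the fly 4E-BP that blocks eIF4E from eIF4G, had 7075 counts in H1OE, 1392 in Levodopa and 1620 in control at 29 °C, a fold of H1OE over control of 3.87 (95% exact counting interval 3.66 to 4.08). The H1OE library stood far above the other 2 at 29 °C. At 25 °C Thor had 6696 and 6626 counts in Levodopa and 4834 and 5423 in control, and its log2 fold change was 0.10 (SE 0.03) on scaled counts. The eIF4E kinase gene Lk6 had 122823 counts in H1OE and 65767 in control (fold 1.65). Paip2 had 3325 counts in H1OE and 1820 in control (fold 1.62), and Dph1, a diphthamide enzyme gene, 2718 in H1OE and 1597 in control (fold 1.51). The transcript of eIF4E1, whose product Thor binds and Lk6 phosphorylates, was at -0.02 in H1OE over control.

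The stress pathway that acts through eIF2alpha was read from its kinases, its transcription factor and listed targets of that factor. The eIF2alpha kinase genes Gcn2 and PEK and crc, the fly ATF4, passed the 1.5-fold rule in no comparison. For Gcn2 the log2 fold change with Levodopa was 0.53 at 25 °C and 0.06 at 29 °C, and that of H1OE over control was 0.07. For PEK the values in these 3 comparisons were 0.12, 0.14 and 0.00, and for crc 0.03, -0.09 and 0.10. Targets of crc did pass in places: besides Thor in H1OE, the lactate dehydrogenase gene Ldh rose in Levodopa at 25 °C (0.97, SE 0.09) and was lower in Levodopa at 29 °C (-0.93), and the asparagine synthetase gene AsnS was lower in H1OE (-0.82). The 3 targets were all below 0 in Levodopa at 29 °C and were of mixed sign in Levodopa at 25 °C and in H1OE over control.

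Neighbouring parts of the translation machinery were read as lists by the same rules. In Levodopa at 25 °C 13.9% of all genes fell by the 1.5-fold rule, and 23.4% of those shorter than 2000 bases. With the length trend removed, 8.14% of all genes fell. Of 85 measured cytoplasmic ribosomal protein genes 81 fell in Levodopa at 25 °C by the 1.5-fold rule, with a median of -0.89, and 60 did after the length trend was removed; their medians at 29 °C were -0.09 in Levodopa and 0.04 in H1OE over control. Of 18 cytosolic tRNA synthetase genes, which charge the tRNAs that eEF1alpha carries, 0 passed in any comparison, with a median of -0.20 in Levodopa at 25 °C. Of 9 mitochondrial translation factor genes 2 fell in Levodopa at 25 °C, mEFTu2 (-0.65) and the recycling factor gene mRRF1 (-0.66), and 0 of 9 did after the length trend was removed; 0 passed at 29 °C. Of 5 ribosome recycling and rescue genes, among them pelo and HBS1, 0 passed in any comparison.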

How the data were processed

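Raw read counts and FPKM of every library are the authors' own deposited values. Per the submitters' processing notes, reads were aligned with HISAT2 2.2.1 to dm6. How reads were counted, with or without strand, is not given in the sources used here. At 29 °C a further 2 value columns belonged to no labelled sample and were not used. Groups came from the labels.

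Members and lists were chosen with earlier results of these data known. At 25 °C, 11799 genes with at least 10 counts in 1 column were tested with edgeR 4.0.16 (R 4.3.3; TMM, quasi-likelihood F test, Benjamini-Hochberg) at an adjusted p of 0.05 with a 2-fold or 1.5-fold minimum. Each SE is the absolute log2 fold change divided by the square root of the F statistic, which draws on scatter shared between genes. The common biological coefficient of variation between columns was 2.87%, and their variance was 2.08 (Levodopa) and 2.64 (control) times the Poisson variance. At 29 °C, ratios used TMM-scaled counts with 10 counts added and exact 95% intervals that cover counting error only; such intervals are too narrow for the spread seen between columns. A count of 0 allows 3 counts, or 0.0989 to 0.121 CPM. Values per library are given for up to 10 members a comparison past the 1.5-fold rule with at least 50 counts and the highest member of each role; up to 2 genes a list past the rule; Thor, crc, Gcn2 and PEK. Others named were chosen after their values were seen. Alternatives used DESeq2 1.42.0, limma 3.58.1 on deposited FPKM plus 1, other filters, scalings and a loess length correction. The scripts were tested on simulated data. Spans of 27 members overlap another gene, 11 on the same strand. Sequences of the genes were not used here.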

Additional observations from a re-analysis of the deposited data

Results flagged for a closer look

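Several members had opposite signs under Levodopa at the 2 temperatures, and eIF3m was the one of the 13 fallen genes with the highest value at 29 °C. It fell at 25 °C (log2 fold change -0.66, both Levodopa columns below both control columns) and was at 0.14 at 29 °C, where 9796 counts in Levodopa stood against 8235 in control; the difference between the temperatures was not tested.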

How the results depend on the processing

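No paired analysis was possible because the labels give no replicate numbers and each group is 1 labelled sample. At 25 °C, 13 translation factors fell and 0 rose by the 1.5-fold rule. Total-count scaling gave 5 lower and 1 higher, removal of the length trend 4 and 1, deposited FPKM with limma 4 lower, and summed columns 1 higher; leaving out 1 column each gave 13 to 14 lower and 0 to 1 higher. The members' median of -0.35 became -0.21 with total-count scaling, -0.22 without the length trend and -0.21 with FPKM; total-count scaling also moved the median of all genes to 0.13, and the members then lay -0.34 from it. Over all genes at 25 °C the count past 2-fold (609) was 399 with a minimum of 50 counts and 242 with FPKM, and 489 to 559 with 1 column left out. The genes higher past 1.5-fold (860) were 1672 with total-count scaling and 1301 with summed columns, and those lower (1643) 1055 with total-count scaling, 960 without the length trend and 901 with FPKM. Signs turned for genes near 0: eIF3c (-0.10) with total-count scaling (0.042) and FPKM (0.041), eIF3a (-0.01) with these (0.12 and 0.12), DESeq2 (0.0074) and the minimum of 50 counts (0.023), and eEFSec (-0.05) with total-count scaling (0.084), FPKM (0.068) and without the length trend (0.15). With 1 column left out they turned for eIF4B (range -0.42 to 0.69), eIF5 (-0.015 to 0.22) and eEFSec (-0.16 to 0.065). Of the 13 fallen genes, 12 kept the call with DESeq2, with the minimum of 50 counts and without Levodopa column 1; eIF2D was the exception in each.

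At 29 °C, Levodopa over control had 2 members past 2-fold with 1 count added in place of 10, and 1 past 1.5-fold with the minimum of 50 counts or with FPKM; H1OE over control had 2 past 1.5-fold with total-count scaling or 1 count added. Over all genes the 2-fold count of Levodopa over control (301) was 84 with the minimum of 50 counts, 821 with 1 count added and 154 with FPKM, that of H1OE over control (809) 399, 1447 and 422, and that of H1OE over Levodopa (703) 367, 1372 and 389. The 1.5-fold counts (1107, 2070 and 1969) were 343, 1072 and 1019 with the minimum of 50 counts and 512, 1276 and 1170 with FPKM. The causes were not tested. With 1 library per group at 29 °C, depth limits the rare members: eIF3d2, eIF3f2 and eIF3g2 had at most 12 counts there.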
